A study of Mus musculus with 30 samples.

Results

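Immediate early genes are transcribed soon after a cell receives a signal, and 10 of them are described here in sorted medullary thymic epithelial cells (mTECs): Fos, Fosb, Jun, Junb, Egr1, Egr2, Ier2, Atf3, Nr4a1 and Dusp1. They were taken by name from the gene tables, 10 of 55011 genes in the table of mTEChi libraries and 10 of 35999 gene symbols in the table of B6 Aire-GFP+ libraries. All 10 passed the filter on low counts in both tables, where 18418 and 17923 genes were tested. The measurements are mRNA levels in bulk libraries of 1000 sorted cells each, so fewer cells of a type and less RNA per cell cannot be told apart.

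Genes of this class need no new protein synthesis for their first transcription: kinases of the MAPK cascades and calcium signals act on factors already bound at their promoters, such as Srf with its Elk partners and Creb1. Most encode transcription factors that carry the signal on to later genes, and their mRNAs are short-lived. They are known to respond to growth factors, to stress and also to the handling of tissue when cells are released by enzymes. In mTECs the protein Aire switches on many genes that otherwise belong to peripheral organs, against which developing T cells are tested, and mTEChi is the subset with high MHC class II and CD80.

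All mice were female C57BL/6J animals aged 4 to 6 weeks, and cells were released from the thymus by enzymes, depleted of CD45+ cells and sorted. B6 Aire-GFP+ cells, which carry a GFP reporter of Aire, came from Aire-KO (2 libraries) and WT (3 libraries) mice with no treatment. The 16 mTEChi libraries form 8 groups of 2: Aire-KO given spermidine or PBS, WT given spermidine or PBS, WT given topotecan or its DMSO vehicle, and Foxn1-cre mice with Nfe2l2 fl/fl or Nfe2l2+/+, both of which carry the Cre that is driven in thymic epithelium by the Foxn1 promoter. Agents were injected intraperitoneally, at doses and times not given in the sources used here, and the libraries of the NOD and F1 mice are not analysed here. Library totals were 6615295 to 12682072 counts in B6 cells and 2027205 to 5724045 counts in mTEChi. The labels do not tie libraries to separate animals, so p-values measure the spread between libraries. Counts per gene did not check the targeted alleles: Aire was read at 1508 and 1774 CPM in B6 Aire-KO libraries, against 1603 to 1686 CPM in WT libraries, and at 4096 to 5075 CPM in Aire-KO mTEChi libraries, against 1621 to 1814 CPM in the WT libraries given spermidine or PBS. Nfe2l2 was read at 105.5 and 86.6 CPM in fl/fl libraries, against 90.7 and 91.4 CPM in +/+ libraries. The defining mTEC genes were present in every group, with none of the 14 listed at 0.

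Among the 10 genes Junb, a subunit of the dimeric AP-1 transcription factors, had the highest mean level over all libraries of each table. Per length, Junb averaged 296.8 RPKM over the 16 mTEChi libraries, above 99.4% of the 18141 tested genes with a length, and 167.3 TPM over the 5 B6 libraries. The B6 means pool WT and Aire-KO libraries, in which Junb averaged 255.2 and 35.4 TPM. In B6 Aire-KO library 2 Fos, at 43.4 TPM, stood above Junb, at 32.4 TPM. Jun, its closest relative here, averaged 127.4 RPKM in mTEChi and 42.4 TPM in B6 cells. Fos, the partner with which Jun forms the classical AP-1 dimer, averaged 103.9 RPKM and 60.6 TPM. Fosb, the other Fos relative, was at the low end, with 2.15 RPKM and 1.64 TPM. Between these stood Dusp1 at 65.2 RPKM, Egr1 at 56.8 RPKM, Ier2 at 56.2 RPKM, Atf3 at 32.7 RPKM, Nr4a1 at 12.5 RPKM and Egr2 at 8.69 RPKM in mTEChi libraries. The RPKM and TPM values come from different counting and sorting and were not compared with each other.

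Which immediate early genes differ in level between Aire-KO and WT Aire-GFP+ cells? In B6 Aire-GFP+ Aire-KO cells 5 of the 10 genes were lower than in WT cells and 0 were higher at adjusted p below 0.05 (edgeR quasi-likelihood test with Benjamini-Hochberg adjustment over all genes), beside 22.3% of all tested genes called lower, 19% called higher and 41.3% called in either direction. The genes that were lower were the AP-1 subunits Jun and Junb, the nuclear receptor Nr4a1, the zinc finger factor Egr2 and the phosphatase Dusp1. The median log2 fold change of the 10 genes was -1.03, against -0.12 over all tested genes. With library totals in place of TMM as the scaling, the all-gene median was -0.51 and the split of all calls changed to 1591 higher and 6250 lower, against 3410 and 4000 with TMM. Under it 6 of the 10 were lower and 0 higher. The libraries did not overlap for 5 of the 10 genes, beside 63.9% of all tested genes in this comparison.

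Jun stood at 13.8 and 20.8 CPM in Aire-KO libraries, against 75.5, 184.9 and 271.9 CPM in WT libraries. Both Aire-KO libraries lay below all 3 WT libraries, which themselves were widely spread. The fitted level was 10.2-fold lower (log2 fold change -3.35, SE 0.514, adjusted p = 0.00164). Junb stood at 77.2 and 65.8 CPM in Aire-KO libraries, against 188.8, 413.8 and 480.9 CPM in WT libraries, again without overlap. Its fitted level was 5.06-fold lower (log2 fold change -2.34, SE 0.361, adjusted p = 0.00168). Nr4a1, an orphan nuclear receptor that marks antigen receptor signalling in lymphocytes, stood at 2.50 and 6.25 CPM in Aire-KO libraries, against 16.9, 15.9 and 21.6 CPM in WT libraries. It did not overlap and was 4.08-fold lower (log2 fold change -2.03, SE 0.398, adjusted p = 0.00497). These 3 genes were called lower under all 10 alternative settings tried, including the removal of any 1 library.

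The promoter stretches of these 3 genes are shown with that of Fos, which is driven by many of the same signals. Fos was also lower without overlap but did not pass the threshold. Each is the 250 bases before the RefSeq start site on the gene's own strand in build GRCm38.p6, at chr4:95052223-95052472 on the minus strand for Jun, chr8:84978749-84978998 on the minus strand for Junb, chr15:101266596-101266845 on the plus strand for Nr4a1 and chr12:85473640-85473889 on the plus strand for Fos. Capitals mark TGACG, the core of the cAMP response element to which Creb1 binds, with its reverse complement CGTCA, and in Jun the AP-1-like element TGACATCA.
Jun: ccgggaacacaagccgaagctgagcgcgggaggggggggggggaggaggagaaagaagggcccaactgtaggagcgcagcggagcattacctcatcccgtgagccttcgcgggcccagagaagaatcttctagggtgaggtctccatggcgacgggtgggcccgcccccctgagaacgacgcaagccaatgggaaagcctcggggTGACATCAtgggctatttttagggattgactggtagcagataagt
Junb: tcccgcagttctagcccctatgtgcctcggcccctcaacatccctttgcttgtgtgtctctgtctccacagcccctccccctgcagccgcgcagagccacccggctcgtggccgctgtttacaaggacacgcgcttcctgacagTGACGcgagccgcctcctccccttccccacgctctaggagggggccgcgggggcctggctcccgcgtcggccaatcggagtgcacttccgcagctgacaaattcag
Nr4a1: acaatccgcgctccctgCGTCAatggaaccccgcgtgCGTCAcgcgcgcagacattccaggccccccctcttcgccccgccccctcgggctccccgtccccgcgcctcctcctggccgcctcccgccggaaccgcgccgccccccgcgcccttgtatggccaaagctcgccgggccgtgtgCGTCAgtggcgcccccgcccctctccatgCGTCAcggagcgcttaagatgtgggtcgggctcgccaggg
Fos: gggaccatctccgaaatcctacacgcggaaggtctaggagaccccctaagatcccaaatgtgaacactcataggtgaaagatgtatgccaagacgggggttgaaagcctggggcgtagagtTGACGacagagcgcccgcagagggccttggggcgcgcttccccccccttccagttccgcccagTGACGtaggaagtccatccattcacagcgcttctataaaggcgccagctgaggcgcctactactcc
RefSeq windows of this kind were at hand for 8 of the 10 genes. Searched on both strands, TGACG was found in at least 1 window of 7 of the 8, against 19.8% of all 27025 genes with such windows. The whole palindrome TGACGTCA, which contains TGACG, was found for 1 gene, Dusp1, against 1.77% of genes, and TGACATCA for 1 gene, Jun, against 3.41%. The classical AP-1 element TGACTCA was found in 0 of the 8 genes' windows, against 5.16% of genes. The CArG box to which Srf binds, searched in its exact form, was found for 1 gene, Egr2, which has several windows, against 1.62%. Bases further than 250 from a start site were not searched, and Egr1 and Ier2 had no window. The search therefore does not tell which of the 10 genes lack such a box. Jun had no TGACG in its window, and Fos had it at 129 and 66 bases before the start site. Nr4a1 had it at 4 positions, 233, 213, 69 and 40 bases before the start site, and Junb at 1, 106 bases before it. A match of letters is a description and not a bound site, and its part in the levels was not tested.

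Egr2 and Dusp1 were lower with less margin. Egr2 stood at 2.62 and 2.46 CPM in Aire-KO libraries, from 22 to 76 counts a library over both groups, against 5.11, 6.70 and 6.24 CPM in WT libraries. The groups did not overlap, and the fitted level was 2.37-fold lower (log2 fold change -1.24, SE 0.419, adjusted p = 0.0435), yet without any 1 of the libraries the adjusted p was 0.0623 to 0.129, and with no filter it was 0.0765. Dusp1, which removes phosphates from ERK, p38 and JNK and so ends the signal that induced it, stood at 28.7 and 47.6 CPM in Aire-KO libraries, against 46.7, 101.5 and 164.6 CPM in WT libraries. Aire-KO library 2 overlapped WT library 1, and the fitted 2.73-fold lower level (log2 fold change -1.45, SE 0.467, adjusted p = 0.0374) kept its call without WT library 1 (adjusted p = 0.00303) and lost it without any other library (adjusted p = 0.0705 to 0.203) and with DESeq2 (adjusted p = 0.0697). Without WT library 3 or without Aire-KO library 1, 3 of the 10 genes were called.

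The other 5 genes did not pass the threshold in B6 Aire-GFP+ cells. Fos stood at 49.1 and 103.9 CPM in Aire-KO libraries, against 141.7, 106.3 and 155.8 CPM in WT libraries. Aire-KO library 2 lay just under WT library 2 and the groups did not overlap, with a log2 fold change of -0.81 (SE 0.298, adjusted p = 0.0588). Fos was called lower under 6 of the 10 alternatives, and its log2 fold change was -1.44 without Aire-KO library 2 and -0.36 without Aire-KO library 1. Egr1, a zinc finger factor often used as a readout of ERK signalling, averaged 63.4 ± 16.4 CPM in Aire-KO libraries (SD, n = 2) and 70.0 ± 28.8 CPM in WT libraries (SD, n = 3). Its log2 fold change of -0.15 had a 95% interval from -0.86 to 0.57. Ier2, a small nuclear protein, averaged 12.9 ± 3.89 CPM in Aire-KO libraries and 14.4 ± 2.44 CPM in WT libraries, with a log2 fold change of -0.16. Atf3, a stress-induced bZIP factor that also pairs with Jun, averaged 48.3 ± 20.7 CPM in Aire-KO libraries and 40.8 ± 6.45 CPM in WT libraries, the one positive log2 fold change of the 10 at 0.25, which turned to -0.15 with library totals as the scaling. Fosb averaged 4.61 ± 3.66 CPM in Aire-KO libraries and 6.03 ± 2.55 CPM in WT libraries. For Fosb, Egr1, Ier2 and Atf3 the libraries of the 2 groups overlapped.

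**Figure D1:**
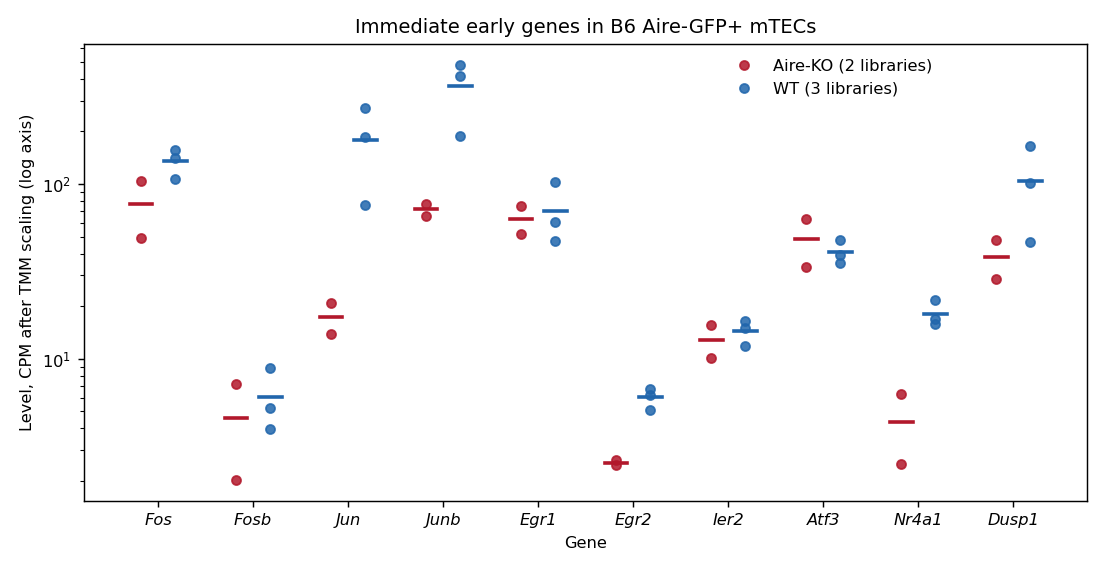
Levels of the 10 genes in B6 Aire-GFP+ mTECs as CPM after TMM scaling on a log axis, with 1 point per library and a bar at the group mean, 2 Aire-KO libraries to the left of 3 WT libraries for each gene. The Aire-KO points of Jun, at 13.8 and 20.8 CPM, lie furthest below their WT points, while the points of Egr1, Ier2, Atf3 and Fosb overlap between the groups.

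Markers of other cells also differed between these libraries, and their part in the changes of the 10 genes was not tested. The summed level of the 14 mTEC markers was 68680 to 72540 CPM in Aire-KO libraries, against 32150 to 32440 CPM in WT libraries. The 9 myeloid markers summed to 2278 to 2304 CPM in Aire-KO libraries, against 1143 to 1548 CPM in WT libraries, and the 7 fibroblast markers to 263.7 to 343.9 CPM, against 87.6 to 136.4 CPM. The 10 thymocyte markers went the other way, with 25.7 to 47.8 CPM in Aire-KO libraries, against 56.9 to 83.5 CPM in WT libraries. The B cell and endothelial sums were also higher and the cTEC sum lower in Aire-KO libraries, without overlap.

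The B6 table also resolves transcripts. Jun and Ier2 are single-exon genes, and all of their counts fell on 1 transcript in each library. Fos and Junb placed nearly all of theirs on their main coding transcript, with the lowest shares 99.59% and 99.86%, both in Aire-KO library 2. For Dusp1 the shares moved between libraries. The main coding transcript Dusp1-202 took 46.3 and 27.2% of the estimated counts in Aire-KO libraries, against 37.4, 79.6 and 64.4% in WT libraries. Another coding transcript, Dusp1-206, took 39.4 and 53.6% in Aire-KO libraries, against 17.0, 0.0430 and 0% in WT libraries, so it was higher in both Aire-KO libraries than in any WT library. The retained-intron transcript Dusp1-203 took 9.13 and 14.8% in Aire-KO libraries, against 34.4, 12.4 and 25.6% in WT libraries, with overlap. These shares are estimates that divide ambiguous reads, and no test was run on them. The last exon of Junb on chromosome 8 overlaps Prdx2 on the opposite strand, Dusp1 on chromosome 17 overlaps an exon of Ergic1, and Jun on chromosome 4 overlaps the antisense gene Junos. The libraries carry no strand, so reads in the shared bases cannot be told apart.

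Does the same pattern appear in mTEChi cells that lack Aire? With PBS and spermidine groups pooled, 1 of the 10 genes, Junb, was called higher in Aire-KO mTEChi and 0 were called lower, beside 10.3% of all tested genes called higher, 12.5% called lower and 22.8% called in either direction. The libraries of 1 of the 10 did not overlap, beside 26.4% of all tested genes. With library totals as the scaling the all-gene median was -0.23 and all calls split into 1167 higher and 3222 lower, against 1890 and 2305 with TMM. The median log2 fold change of the 10 genes was -0.15, against -0.05 over all tested genes. Junb stood at 772.9 and 810.2 CPM in Aire-KO libraries given PBS and 794.6 and 806.6 CPM in Aire-KO libraries given spermidine. In WT libraries it stood at 696.6 and 452.2 CPM with PBS and 524.0 and 743.1 CPM with spermidine. All 4 Aire-KO libraries lay above all 4 WT libraries, and the Aire-KO libraries were close together while the WT libraries were spread. The level was 1.32-fold higher (log2 fold change 0.40, SE 0.123, adjusted p = 0.0308). The log2 fold change stayed positive, between 0.22 and 0.57, under all 14 alternatives, and the call held under 5 of them. It was lost with library totals (log2 fold change 0.22, adjusted p = 0.223), without WT PBS library 2 (0.25, adjusted p = 0.136), without WT spermidine library 1 (0.28, adjusted p = 0.139) and without any 1 of the 4 Aire-KO libraries (adjusted p = 0.0639 to 0.0866).

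Nr4a1, Fos and Jun had negative and Ier2 and Egr1 positive log2 fold changes in Aire-KO mTEChi that did not pass the threshold. Nr4a1 stood at 23.0 and 17.6 CPM with PBS and 39.3 and 33.7 CPM with spermidine in Aire-KO libraries, against 55.7 and 40.8 CPM with PBS and 24.4 and 81.5 CPM with spermidine in WT libraries. With PBS the groups did not overlap, and with spermidine they did. Its pooled log2 fold change was -0.89 (SE 0.355, adjusted p = 0.0870), and in the fit limited to the 8 libraries of the spermidine experiment it passed the threshold (log2 fold change -0.92, adjusted p = 0.0435), while Junb did not (log2 fold change 0.37, adjusted p = 0.0582). Fos had a pooled log2 fold change of -0.45 (SE 0.176, adjusted p = 0.0806) and Jun of -0.26 (SE 0.138, adjusted p = 0.197). Ier2 had 0.77 (SE 0.318, adjusted p = 0.0961), with 27.3 to 90.6 CPM in Aire-KO libraries and 14.6 to 54.6 CPM in WT libraries, which overlap. Egr1 had 0.31 (SE 0.151, adjusted p = 0.160). For Fosb, Egr2, Atf3 and Dusp1 the pooled log2 fold changes were -0.05, -0.42, 0.21 and -0.27, each with a 95% interval that included 0. The pooled intervals of Jun and Egr1 also included 0. Under other settings Fos and Nr4a1 were called lower, with library totals, with no filter and with DESeq2. These settings called 23.8, 9.84 and 22.8% of the genes they tested. Jun was called lower with library totals, and Ier2 was called higher with no filter.

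Taken by treatment, 0 of the 10 genes were called in PBS mTEChi, beside 10.3% of all tested genes, and 0 in spermidine mTEChi, beside 9.11% (edgeR). By direction, 5.21% of all tested genes were called higher and 5.08% lower with PBS, and 4.77% higher and 4.34% lower with spermidine. With library totals these calls split into 581 higher and 1387 lower with PBS, against 960 and 936 with TMM, and into 558 higher and 1081 lower with spermidine, against 879 and 799. At an unadjusted p under 0.05 there were 4 and 2 of the 10, beside 4629 and 4353 of the 18418 tested genes. DESeq2 called 0 of the 10 in each, beside 11.8% and 10.6% of the genes it tested. Without overlap were 4 of the 10 with PBS, beside 55.3% of all tested genes, and 3 with spermidine, beside 56.2%. The smallest adjusted p with PBS was 0.0927, for Egr2, at 23.9 and 12.1 CPM in Aire-KO libraries, against 34.96 and 40.3 CPM in WT libraries. With spermidine it was 0.0868, for Ier2, at 81.6 and 90.6 CPM in Aire-KO libraries, against 32.6 and 37.7 CPM in WT libraries. The groups did not overlap in these comparisons. The 14 mTEC markers summed to 46190 to 48160 CPM in the 4 Aire-KO libraries, against 25340 to 26630 CPM in the 4 WT libraries. With PBS the cTEC markers did not overlap, at 446.1 to 455.0 CPM in Aire-KO libraries, against 584.6 to 690.7 CPM in WT libraries. The erythroid markers differed without overlap in opposite directions. With PBS they summed to 91.1 to 110.2 CPM in Aire-KO libraries, against 111.4 to 298.4 CPM in WT libraries. With spermidine they summed to 62.1 to 184.1 CPM, against 26.7 to 55.9 CPM. With spermidine the myeloid markers summed to 1989 to 2322 CPM in Aire-KO libraries, against 1664 to 1924 CPM in WT libraries, and the thymocyte markers to 147.6 to 148.1 CPM, against 93.3 to 132.1 CPM. The part of these differences in the levels of the 10 genes was not tested.

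Set side by side, the Aire-KO effect on Jun was a log2 fold change of -3.35 in B6 Aire-GFP+ cells and -0.26 in mTEChi, on Nr4a1 -2.03 and -0.89, on Egr2 -1.24 and -0.42, on Dusp1 -1.45 and -0.27, and on Fos -0.81 and -0.45. Junb was the gene whose libraries were apart in opposite directions, at -2.34 and 0.40. The tables differ in sort and in counting method and were fitted apart, so the difference between the effects was not tested.

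**Figure D2:**
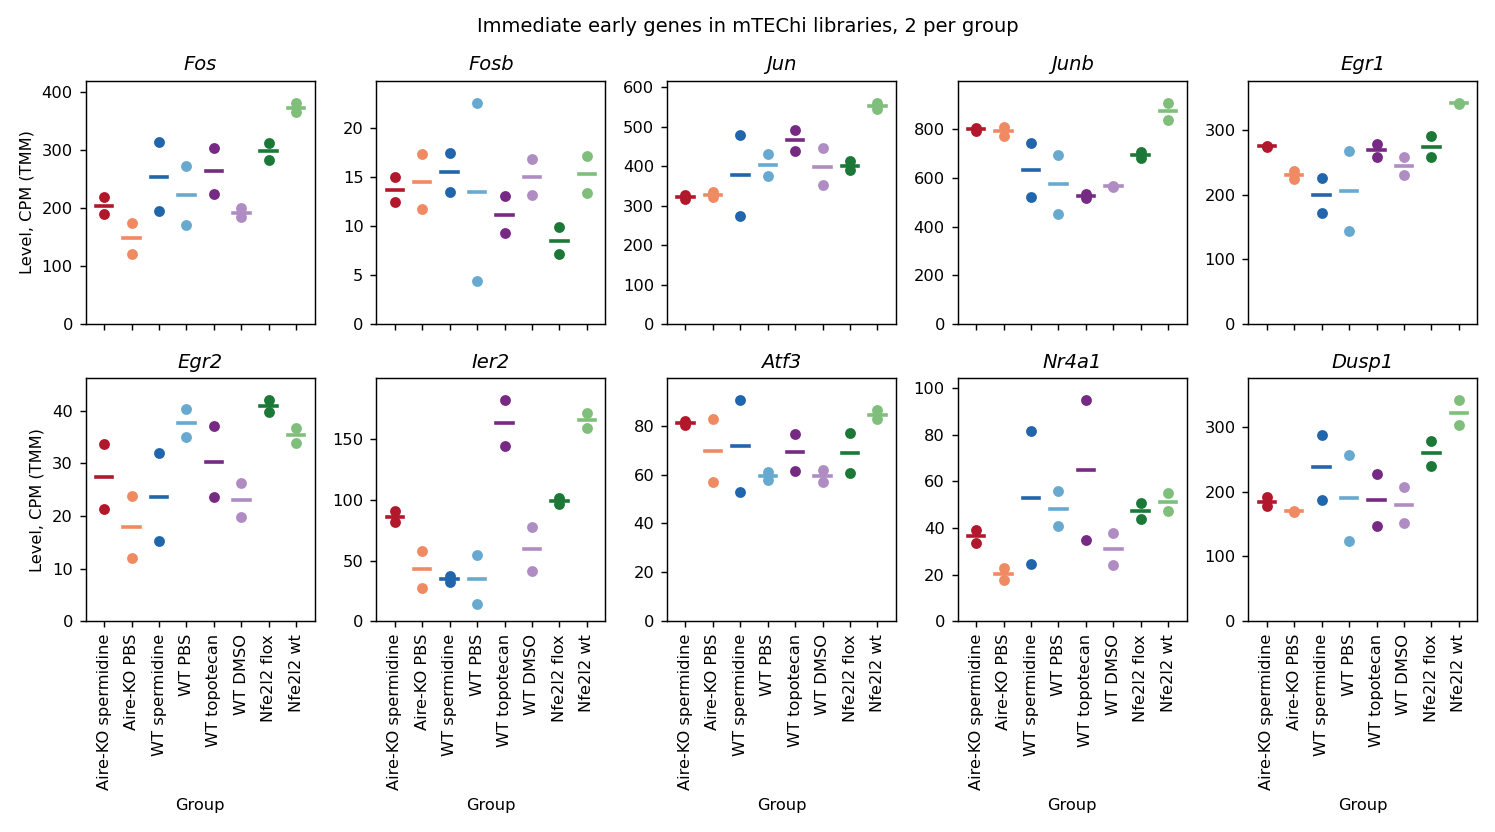
Levels of the 10 genes in the 16 mTEChi libraries as CPM after TMM scaling on linear axes from 0, 1 panel per gene, with 1 point per library and a bar at the mean of the 2 libraries of each of the 8 groups. Junb is higher in all 4 Aire-KO libraries than in the 4 WT libraries given PBS or spermidine, Ier2 is highest in the topotecan and Nfe2l2+/+ (wt) groups, and the WT PBS and WT spermidine points are often far apart.

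Spermidine, a polyamine, was set against PBS in each genotype. Of the 10 genes 0 were called in WT cells, 0 in Aire-KO cells, 0 with both pooled and 0 for the difference between genotypes, beside 0, 0.00543, 0 and 0% of all tested genes (edgeR). At an unadjusted p under 0.05 there were 0, 1, 0 and 1 of the 10, beside 709, 759, 820 and 619 of the 18418 tested genes. DESeq2 also called 0 of the 10 in each of these comparisons, beside 0, 0.0757, 0.0109 and 0.0163% of the genes it tested. In Aire-KO cells 5 of the 10 genes, Fos, Egr1, Ier2, Nr4a1 and Dusp1, were higher in both spermidine libraries than in both PBS libraries, beside 35.9% of all tested genes without overlap. In WT cells 1 of the 10, Egr2, did not overlap, beside 32.8%, and with both genotypes pooled 0 did not, beside 1.86%. The largest was Ier2, at 81.6 and 90.6 CPM with spermidine, against 58.2 and 27.3 CPM with PBS (log2 fold change 1.03, SE 0.438, unadjusted p = 0.0339, adjusted p = 1). In WT cells Ier2 stood at 32.6 and 37.7 CPM with spermidine, between the 54.6 and 14.6 CPM of the PBS libraries. Egr2 had opposite signs in the genotypes, with 21.4 and 33.7 CPM with spermidine against 23.9 and 12.1 CPM with PBS in Aire-KO cells, and 15.2 and 32.0 CPM with spermidine against 34.96 and 40.3 CPM with PBS in WT cells. In Aire-KO cells markers of other cells moved too, without overlap: the thymocyte markers summed to 147.6 to 148.1 CPM with spermidine, against 69.9 to 73.9 CPM with PBS, the endothelial markers to 67.3 to 80.6 CPM, against 37.3 to 54.2 CPM, and the cTEC markers to 563.9 to 759.5 CPM, against 446.1 to 455.0 CPM. Their part in the levels of the 5 genes was not tested. The difference of the log2 effects on Egr2 was 1.31 (SE 0.547, unadjusted p = 0.0310) and did not pass adjustment over all genes (adjusted p = 1.00).

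Topotecan, an inhibitor of topoisomerase I, left 0 of the 10 genes past the threshold against DMSO, beside 0.652% of all tested genes, 0.195% higher and 0.456% lower (edgeR). At an unadjusted p under 0.05 there were 2 of the 10, Ier2 and Nr4a1, beside 2566 of the 18418 tested genes. DESeq2 called 0 of the 10, beside 2.61% of the genes it tested. Ier2 stood at 181.5 and 144.0 CPM with topotecan, against 41.0 and 77.4 CPM with DMSO. Both topotecan libraries lay well above both DMSO libraries, and only the Nfe2l2+/+ group reached like levels of Ier2 in the mTEChi table. The fitted level was 2.75-fold higher (log2 fold change 1.46, SE 0.411, 95% interval 0.58 to 2.34, adjusted p = 0.121). Nr4a1 stood at 34.8 and 94.6 CPM with topotecan, against 24.1 and 37.9 CPM with DMSO, so the higher value rests on topotecan library 2 and the groups overlap (log2 fold change 1.06, SE 0.476, adjusted p = 0.338). That library also held 1375 CPM of the 7 fibroblast markers, against 165.3 CPM in topotecan library 1 and 368.7 to 730.7 CPM in DMSO libraries, and the part of this in Nr4a1 was not tested. Fos stood at 224.2 and 302.6 CPM with topotecan, against 184.9 and 199.4 CPM with DMSO, without overlap (log2 fold change 0.46, SE 0.245, adjusted p = 0.430). The 9 myeloid markers summed to 2226 to 2247 CPM with topotecan, against 1742 to 1796 CPM with DMSO, and the 14 mTEC markers to 16520 to 17750 CPM, against 20280 to 21420 CPM. Their part in Ier2 and Fos was not tested. The other 7 genes had log2 fold changes between -0.42, for Fosb, and 0.39, for Egr2. In all, 5 of the 10 genes did not overlap between groups, 3 higher and 2 lower, beside 39.7% of all tested genes.

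Nfe2l2 encodes the antioxidant response factor Nrf2, a bZIP protein that shares small Maf partners with the AP-1 family. In Foxn1-cre Nfe2l2 fl/fl cells 0 of the 10 genes were called against Nfe2l2+/+ cells, beside 0% of all tested genes (edgeR). At an unadjusted p under 0.05 there was 1 of the 10, beside 973 of the 18418 tested genes. DESeq2 called 0 of the 10, beside 0.255% of the genes it tested. The log2 fold change was negative for 9 of the 10, with a median of -0.32 against -0.01 over all tested genes, and for 8 of the 10 both fl/fl libraries lay below both +/+ libraries. Without overlap in either direction were 9 of the 10 genes, beside 33.9% of all tested genes, and 1 of these 9, Egr2, was higher. Jun had the smallest p, at 414.0 and 389.9 CPM in fl/fl libraries, against 545.7 and 560.2 CPM in +/+ libraries. The libraries of each group were close together and the groups were apart (log2 fold change -0.46, SE 0.192, unadjusted p = 0.0310, adjusted p = 0.881). Ier2 stood at 101.4 and 96.2 CPM in fl/fl libraries, against 171.3 and 159.1 CPM in +/+ libraries (log2 fold change -0.74, SE 0.395, adjusted p = 0.989). Fos stood at 312.6 and 283.5 CPM in fl/fl libraries, against 380.8 and 365.5 CPM in +/+ libraries (log2 fold change -0.32, SE 0.240, adjusted p = 1). The +/+ libraries held the highest mean of all 8 mTEChi groups for 7 of the 10 genes, Fos, Jun, Junb, Egr1, Ier2, Atf3 and Dusp1. Genotype, injection and experiment differ together between these groups, and their parts cannot be told apart. The erythroid markers summed to 80.1 to 127.1 CPM in fl/fl libraries, against 232.3 to 298.5 CPM in +/+ libraries, the thymocyte markers to 59.0 to 96.7 CPM, against 106.5 to 124.7 CPM, the myeloid markers to 1279 to 1377 CPM, against 1539 to 1566 CPM, and the endothelial markers to 22.8 to 29.9 CPM, against 31.7 to 36.1 CPM. The cTEC markers summed to 748.8 to 976.9 CPM in fl/fl libraries, against 539.0 to 575.7 CPM in +/+ libraries, and the mTEC markers to 37290 to 37930 CPM, against 33840 to 35220 CPM. The part of these in the result was not tested.

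**Figure D3:**
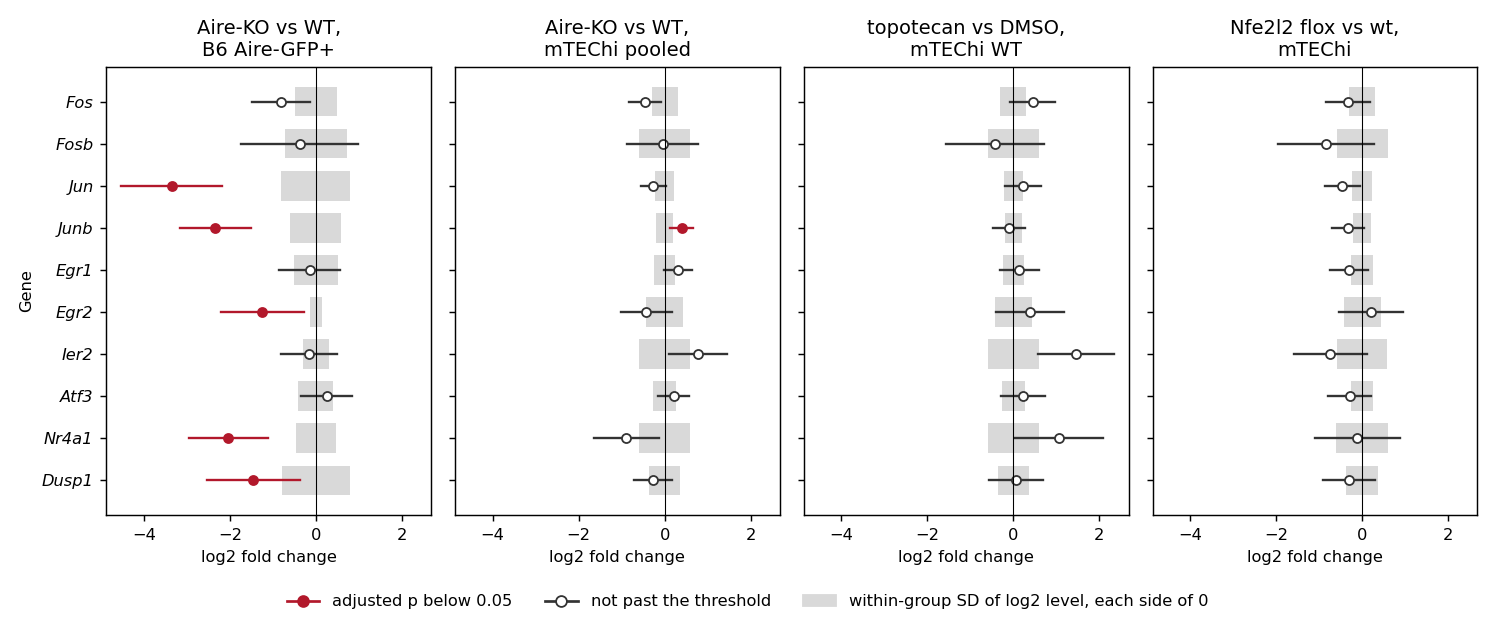
Log2 fold change (horizontal axis) of each gene in 4 comparisons, with points at the fitted value, lines for its 95% interval and filled red points for adjusted p below 0.05 (edgeR). Grey bars give the within-group SD of the log2 level on each side of 0, pooled over all groups of mTEChi or of B6 cells. In B6 Aire-GFP+ cells Jun, Junb, Nr4a1 and Egr2 lie far outside their grey bars. The bar of Egr2, at 0.143, is narrowed by the 1 CPM added to levels of 2.46 to 6.70 CPM, which is not added for the fold change. In the 3 mTEChi panels Junb in Aire-KO cells, at 0.40, is the only point past the threshold.

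The effects were set against the spread between libraries. The SD of the log2 level within groups, with 1 CPM added, was pooled over all groups of mTEChi or of B6 cells. It had a median of 0.333 over the 10 genes in mTEChi and 0.500 in B6 cells, against 0.358 and 0.260 over all tested genes. The same SD of a gene thus served every mTEChi comparison, though groups differed in spread. For Ier2, library 2 differed from library 1 by -1.84 in the WT PBS group and by -0.11 and -0.08 in the Nfe2l2+/+ and fl/fl groups. Genes with low levels vary more, so the fairer comparison is with genes within 2-fold of the same level. There Ier2 had an SD of 0.587, above 98.1% of such genes, Nr4a1 of 0.600, above 96.0%, Dusp1 of 0.366, above 95.9%, and Fos of 0.301, above 92.3% in mTEChi. The lowest place was that of Atf3, whose SD of 0.263 was above 72.0%. In B6 cells Jun, Junb and Dusp1 had SDs of 0.802, 0.597 and 0.794, each above at least 99.0% of genes of like level, and Egr2 had an SD of 0.143, above 6.03%. The 1 CPM is added for the SD and not for the fold change. It narrows the SD most at low levels, such as those of Egr2 in B6 cells. The size of the log2 fold change was above this SD for 6 of the 10 genes in B6 Aire-KO cells, 6 in pooled Aire-KO mTEChi, 1 with spermidine pooled, 3 with topotecan and 7 in Nfe2l2 fl/fl cells. It was above 2 SDs for 4, 0, 0, 1 and 1 of the 10. The share of all tested genes past 1 or 2 SDs was not computed, so these counts do not set the 10 genes apart from other genes.

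In 3 of the 8 mTEChi groups at least 8 of the 10 genes differed the same way between the libraries of the group. In the WT spermidine group all 10 were higher in library 2 than in library 1, by a median of 0.65 on the log2 scale, and 49.7% of all tested genes were. In the WT PBS group 8 of the 10 were lower in library 2, by a median difference of -0.64, with the largest gaps in Fosb, at 22.6 CPM in library 1 and 4.37 CPM in library 2, and in Ier2, at 54.6 and 14.6 CPM. Library 2 of that group had the lowest total of the 16, 2027205 counts, and Fosb and Ier2 rest there on 9 and 30 counts. In the DMSO group 9 of the 10 were higher in library 2. In the topotecan group 7 were higher and 3 lower, in the Aire-KO PBS group 4 and 6 and in the Aire-KO spermidine group 5 and 5, and in both Nfe2l2 groups the median difference was under 0.1 in size. Among the B6 libraries 9 of the 10 genes were higher in WT library 3 than in WT library 1, by a median of 0.56, 6 of the 10 were higher in WT library 2 than in WT library 1, and 8 of the 10 were higher in Aire-KO library 2 than in library 1, by a median of 0.65.

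**Figure D4:**
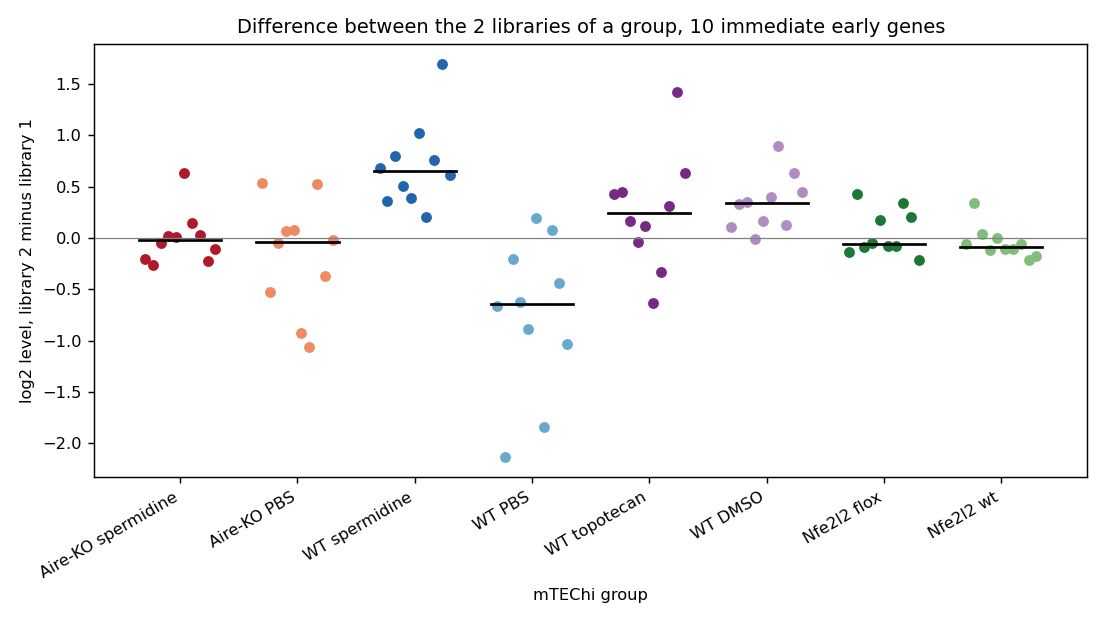
Difference in log2 level between library 2 and library 1 of each mTEChi group, with 1 point for each of the 10 genes and a black line at their median. All 10 points lie above 0 in the WT spermidine group, with a median of 0.65, and 8 of 10 lie below 0 in the WT PBS group, with a median of -0.64.

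With the group means removed, the genes that followed the mean profile of the 10 most closely over the 16 mTEChi libraries, among 11500 genes of 10 CPM or more, were Plcg2, a phospholipase C of calcium signalling (Pearson r = 0.955), the kinase Vrk2 (0.938), Pgs1 (0.909), Capn10 (0.907), Anxa4 (0.903), Ppp6r1 (0.901), Sh3bp5 (0.893) and Mknk2 (0.892), a kinase downstream of ERK and p38. With the group means kept they were Igfbp2 (0.847), Cltb (0.826), Spint1 (0.812), Capn10 (0.810), Egln2 (0.804), Serbp1 (0.801), Kti12 (0.801) and Abhd12 (0.800). These are the ends of a ranking over 16 libraries, which share groups, depth and sort, and carry no test. Removing the group means leaves 8 differences, 1 between the libraries of each group. Of the 10 genes themselves, Dusp1 followed the mean of the other 9 most closely with group means removed (r = 0.901), then Egr1 (0.878) and Junb (0.853), and Egr2 least (0.226).

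Other genes of the same kind moved in both directions when Aire was missing. Of 30 further immediate early genes tested in B6 Aire-GFP+ cells, 8 were higher and 8 lower in Aire-KO cells, beside 19% and 22.3% of all tested genes. With library totals the split was 4 higher and 12 lower. Arc, a regulator of the synaptic cytoskeleton, fell to 13.9 ± 2.53 CPM in Aire-KO cells, against 83.9 ± 7.58 CPM in WT cells (log2 fold change -2.59, adjusted p = 6.42e-05). Zfp36, which binds and destabilises mRNAs, fell to 55.2 ± 3.33 CPM, against 140.4 ± 12.2 CPM in WT cells (log2 fold change -1.35). Nfkbia, the inhibitor of NF-kB, rose to 3413 ± 157 CPM, against 1962 ± 95.7 CPM in WT cells (log2 fold change 0.80), and Mcl1, a survival factor of the Bcl-2 family, to 104.2 ± 8.33 CPM, against 38.7 ± 5.25 CPM in WT cells (log2 fold change 1.43). In pooled mTEChi 7 of 29 were higher and 4 lower in Aire-KO cells, beside 10.3% and 12.5% of all tested genes, and with library totals 6 and 5. Plk2, a polo-like kinase, fell to 37.3 ± 9.99 CPM, against 124.8 ± 18.6 CPM in WT cells (log2 fold change -1.78). Ppp1r15a, which restores translation after stress, rose to 378.0 ± 41.5 CPM, against 149.4 ± 17.0 CPM in WT cells (log2 fold change 1.34). Nfkbia rose here too, by a log2 fold change of 0.79, and Klf6, a Kruppel-like factor, by 0.79. With topotecan 1 of 29 was called: Plk2 rose to 149.0 ± 5.28 CPM, against 74.0 ± 3.57 CPM with DMSO (log2 fold change 1.01, SE 0.210, adjusted p = 0.0440). In the spermidine comparisons and in Nfe2l2 fl/fl cells 0 genes of these and the following lists were called.

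Of 19 kinases and factors that act upstream of these genes, 7 were higher and 2 lower in B6 Aire-KO cells, beside 19% and 22.3% of all tested genes, and with library totals 2 higher and 4 lower. Among those that rose were Map2k2, a kinase of the MAPK cascade, to 54.0 ± 0.835 CPM in Aire-KO cells, against 30.4 ± 1.76 CPM in WT cells (log2 fold change 0.83, adjusted p = 0.00285), and Mapk14 and Elk4 with log2 fold changes of 0.85 and 0.83. The 2 that fell, named after their values were seen, were Srf, at 8.71 ± 1.48 CPM against 16.8 ± 1.48 CPM in WT cells, and Elk1, at 1.08 ± 0.323 CPM against 3.58 ± 0.394 CPM. In pooled mTEChi 2 were higher and 2 lower, beside 10.3% and 12.5% of all tested genes, with the coactivator gene Crebbp at 312.0 ± 23.7 CPM in Aire-KO cells, against 159.1 ± 9.47 CPM in WT cells (log2 fold change 0.97), and Map2k1, Rps6ka1 and Mapk8 at log2 fold changes of 0.66, -0.88 and -0.57.

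Among the feedback inhibitors and corepressors, 3 of 14 were higher and 1 lower in B6 Aire-KO cells, and 4 of 15 were higher and 1 lower in pooled Aire-KO mTEChi. The shares of all tested genes were 19% higher and 22.3% lower in B6 cells, and 10.3% higher and 12.5% lower in mTEChi. With library totals these were 1 higher and 5 lower in B6 cells, and 4 higher and 2 lower in mTEChi. Dusp4, a nuclear phosphatase of the same family as Dusp1, fell to 15.97 ± 0.706 CPM in B6 Aire-KO cells, against 43.7 ± 17.0 CPM in WT cells (log2 fold change -1.46, adjusted p = 0.0104). In mTEChi Dusp4 rose to 241.0 ± 14.5 CPM in Aire-KO cells, against 130.6 ± 26.9 CPM in WT cells (log2 fold change 0.89, adjusted p = 0.00202). Dusp16, a phosphatase of JNK and p38, was called higher in both, with log2 fold changes of 1.46 and 0.92. Of 10 bZIP partners of AP-1, 5 were higher and 1 lower in B6 Aire-KO cells and 4 were higher and 0 lower in mTEChi. With library totals these were 3 higher and 3 lower in B6 cells, and 2 higher and 1 lower in mTEChi. Batf3, which pairs with Jun proteins, rose to 32.5 ± 3.15 CPM in B6 Aire-KO cells, against 6.80 ± 0.627 CPM in WT cells (log2 fold change 2.25), and to 29.0 ± 5.28 CPM in Aire-KO mTEChi, against 13.5 ± 2.61 CPM in WT mTEChi (log2 fold change 1.098). Maf was higher in both, at log2 fold changes of 0.88 and 1.04.

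Of the stress programmes that share inducers with these genes, the integrated stress response had 4 of 10 genes higher and 1 lower in B6 Aire-KO cells, and 3 higher and 0 lower in mTEChi. The shares of all tested genes, for this and the next lists, were 19% higher and 22.3% lower in B6 cells, and 10.3% higher and 12.5% lower in mTEChi. Ddit3, its pro-apoptotic factor, rose to 129.2 ± 20.97 CPM in B6 Aire-KO cells, against 44.4 ± 4.09 CPM in WT cells (log2 fold change 1.54), and Atf4, its central activator, to 214.7 ± 17.0 CPM in Aire-KO mTEChi, against 143.6 ± 18.3 CPM in WT mTEChi (log2 fold change 0.59). Heat shock genes were 1 of 13 higher and 2 lower in B6 Aire-KO cells, and 3 higher and 1 lower in mTEChi, with Hspb1 lower in both at log2 fold changes of -2.17 and -1.22. The p53 targets were 3 of 13 higher and 0 lower in B6 Aire-KO cells, and 3 higher and 1 lower in mTEChi, with the death effector gene Bax higher in both at log2 fold changes of 1.31 and 1.36. With library totals the p53 targets were 3 higher and 4 lower in B6 cells and 3 higher and 3 lower in mTEChi, the heat shock genes 0 higher and 5 lower in each, and the integrated stress genes 3 higher and 1 lower in B6 cells and 3 higher and 0 lower in mTEChi. With topotecan 0 of 13 p53 targets, 0 of 10 integrated stress genes and 0 of 13 heat shock genes were called.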

How the data were processed

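RNA of 1000 sorted cells per library was amplified by Smart-seq2 and made into Nextera XT libraries, per the labels' protocols, without molecular identifiers or strand. For mTEChi the authors deposited raw counts per gene; for B6 Aire-GFP+ cells they deposited kallisto estimated counts and TPM per transcript, per the file headers. The submitters' processing notes name STAR, featureCounts, kallisto, TopHat2 2.1.1, SAMtools 1.3.1 and mm10, with no roles; no source used here names the annotation. Estimated counts of 116816 of 118489 transcripts, which matched GENCODE M21, were summed to symbols and rounded. RPKM used GENCODE M21 exon lengths.

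Both tables were fitted apart with edgeR 4.0.16 (quasi-likelihood test, TMM scaling, filterByExpr) in R 4.3.3, all 16 mTEChi libraries in 1 fit, with no replicate block and Benjamini-Hochberg adjustment over all tested genes at 0.05. SEs were derived from the F statistic. Steps were tested on simulated data. Alternatives were other scalings, no filter, DESeq2 1.42.0, a replicate block, single experiments and leaving out each library. The 10 genes and the lists were chosen with earlier results of these data known. All 10 are named; from each list up to 4 called genes with the smallest adjusted p per comparison are named, except that some genes are not reported here, and likeness was ranked at 10 CPM or more. Counts of the 10 genes ranged from 9 to 5090 per library, which limits the precision of the lowest.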

Additional observations from a re-analysis of the deposited data

Results flagged for a closer look

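Junb had log2 fold changes of opposite sign in the Aire-KO comparisons, with no overlap between the libraries of the groups in any of them. Its log2 fold change in Aire-KO against WT cells was -2.34 in B6 Aire-GFP+ cells. It was 0.40 in mTEChi with both treatments pooled, 0.461 with PBS and 0.338 with spermidine. Of the mTEChi values the pooled one passed the threshold (edgeR adjusted p = 0.0308), under 5 of 14 alternatives, and those with PBS and spermidine did not (adjusted p = 0.111 and 0.261). The pooled mTEChi value contains the other 2. The difference between the B6 and mTEChi effects was not tested, since the cells were sorted differently and the counts came from different tools. Junb shares exon bases with Prdx2 on the opposite strand, and reads in those bases cannot be told apart here. In the B6 libraries nearly all Junb counts fell on the coding transcript Junb-201. The non-coding Junb-202 held 1.01 estimated counts in Aire-KO library 2 and 0 in each other library. The mTEChi counts do not resolve transcripts, and the part of the overlap in the opposite signs was not tested.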

How the results depend on the processing

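Of 1120 values of the 10 genes under alternatives, 980 kept their direction and side of the threshold, 34 newly passed it, 21 no longer passed and 0 called values reversed; 85 uncalled values changed sign, 76 of them in genes under 0.3 in log2 size. The count called in B6 Aire-KO cells was 5, and 3 to 4 with 1 library left out. In pooled Aire-KO mTEChi it was 1, and became 3 with library totals as scaling (Fos, Jun and Nr4a1 lower) and 0 with the replicate block. It became 4 with no filter (Fos and Nr4a1 lower, Junb and Ier2 higher) and 3 with DESeq2 (Fos and Nr4a1 lower, Junb higher). With 1 library left out it was 0 to 3: 3 without WT PBS library 1 (Junb, Egr1 and Ier2 higher) or WT spermidine library 1 (Fos, Jun and Nr4a1 lower), 2 without Aire-KO PBS library 2 (Fos and Ier2), and 0 without any other Aire-KO library. In PBS mTEChi it was 0, and became 1 with library totals (Egr2), 4 with no filter and 0 to 2 with 1 library left out, where 2 was the count without WT PBS library 1 (Junb and Egr1). With no filter it became 1 in spermidine mTEChi (Ier2), 1 for spermidine in Aire-KO cells (Ier2) and 2 with topotecan (Ier2 and Nr4a1). The cause of these shifts was not tested. The differences between replicates 1 and 2 of a group were correlated over genes with those of another group of the same experiment. The correlations were -0.0234 to 0.127 in the spermidine experiment, 0.0205 with topotecan and 0.14 in the Nfe2l2 experiment. For B6 libraries of the same number the values were 0.0502 and 0.0701. With so few libraries a group, these values do not settle whether the numbers pair libraries. With the replicate block the adjusted p was 0.137 for Egr2 in B6 cells and 0.0505 for Junb in pooled mTEChi. The number of all genes called under alternatives ranged from 4785 to 8485 in B6 cells, against 7410, from 2816 to 4617 in pooled mTEChi, against 4195, from 636 to 2714 with PBS, against 1896, from 553 to 2517 with spermidine, against 1678, and from 1 (that experiment alone) to 1006 (no filter) with topotecan, against 120. Without the filter the spermidine and Nfe2l2 comparisons called 76 to 134 genes, against 0 or 1. The lowest counts in mTEChi were 9 for Fosb, 30 for Ier2 and 35 for Egr2.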
